A study of Mus musculus with 13 samples.

Results

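CAF-1 and other histone chaperone genes were read in mouse Th17 cells. They comprise 10 genes whose products carry histones H3 and H4, chosen by symbol: the CAF-1 subunits Chaf1a, Chaf1b and Rbbp4, the supply chaperones Asf1a, Asf1b and Nasp, and the genes Hira, Ubn1, Daxx and Atrx, which act apart from replication. All 10 were found among the 56941 genes of the count table, and all 10 passed the filter on low counts that left 14681 genes for testing. The RNA came from Th17 cells, helper T cells that secrete IL-17 cytokines, grown for 72 hours from naive CD4+ splenic T cells under polarizing conditions. The KO genotype carried floxed Chaf1b and a Cre transgene or allele under Il17f control (Chaf1bfl/fl;Il17fCre+), and the other was labelled wild type for Chaf1b (Chaf1bWT, here WT). Each had 3 libraries called biological replicates. Cre under Il17f can act only in cells that have switched Il17f on. The WT label does not say whether Cre was present, and strain, sex, age and the deleted part of Chaf1b are likewise unstated in the labels.

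Newly replicated DNA is packed into nucleosomes by CAF-1, which docks on the sliding clamp PCNA behind the fork and deposits H3-H4 that it receives from ASF1. NASP holds a soluble reserve of H3-H4. Away from the fork, the HIRA complex, in which UBN1 binds the variant H3.3, and the DAXX-ATRX pair deposit H3.3 in any phase of the cell cycle. Many genes of the first kind are transcribed mainly as cells enter S phase, often under the E2F factors. CHR elements and CCAAT boxes mark many promoters that follow the cell cycle through the DREAM complex and NF-Y.

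The stretches before the annotated starts of these genes are shown for the 3 CAF-1 genes, for Asf1b, which changed most, and for Hira, as examples of windows with and without such motifs. They are the 250 bases before the start in RefSeq (GRCm38.p6), read 5′ to 3′ on the gene's own strand, in lower case, with each motif match in capitals. Chaf1a is at chr17:56040166-56040415 (plus strand), Chaf1b at chr16:93883651-93883900 (plus), Rbbp4 at chr4:129335371-129335620 (minus), Asf1b at chr8:83955444-83955693 (plus) and Hira at chr16:18876500-18876749 (plus).
Chaf1a: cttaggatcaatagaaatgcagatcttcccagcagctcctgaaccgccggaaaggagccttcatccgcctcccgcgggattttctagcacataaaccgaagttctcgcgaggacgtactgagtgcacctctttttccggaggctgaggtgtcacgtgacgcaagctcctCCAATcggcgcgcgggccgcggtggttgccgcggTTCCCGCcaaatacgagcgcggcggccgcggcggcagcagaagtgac
Chaf1b: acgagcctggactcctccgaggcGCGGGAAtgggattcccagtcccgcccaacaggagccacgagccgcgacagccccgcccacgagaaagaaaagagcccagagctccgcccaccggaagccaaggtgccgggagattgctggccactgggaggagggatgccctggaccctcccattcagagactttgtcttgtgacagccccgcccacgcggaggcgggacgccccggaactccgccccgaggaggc
Rbbp4: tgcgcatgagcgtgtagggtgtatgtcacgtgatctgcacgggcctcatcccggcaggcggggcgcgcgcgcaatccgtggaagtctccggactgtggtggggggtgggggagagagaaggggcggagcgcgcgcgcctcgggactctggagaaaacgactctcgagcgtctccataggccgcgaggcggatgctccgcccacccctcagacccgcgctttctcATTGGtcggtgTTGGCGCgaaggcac
Asf1b: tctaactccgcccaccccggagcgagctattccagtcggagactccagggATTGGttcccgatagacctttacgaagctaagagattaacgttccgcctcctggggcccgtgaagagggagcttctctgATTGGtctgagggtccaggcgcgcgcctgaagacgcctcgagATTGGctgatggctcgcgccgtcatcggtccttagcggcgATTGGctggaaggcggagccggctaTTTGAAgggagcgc
Hira: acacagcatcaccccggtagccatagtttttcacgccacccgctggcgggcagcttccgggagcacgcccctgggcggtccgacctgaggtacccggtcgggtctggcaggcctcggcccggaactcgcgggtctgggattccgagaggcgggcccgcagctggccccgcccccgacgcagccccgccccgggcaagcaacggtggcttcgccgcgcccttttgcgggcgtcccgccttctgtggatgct

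The motifs searched on both strands were the E2F core (TTGGCGC or TTCCCGC), the CHR element (TTTGAA) and the CCAAT box (CCAAT). None of the matches in these genes overlapped another. An E2F core was found before all 3 CAF-1 genes and before none of the other 7 members, against 5.62% of 32851 windows of the same length. It began 47 bases before the start in Chaf1a, 227 in Chaf1b and 15 in Rbbp4. The CHR element was found before Asf1b, 14 bases from the start, and before Nasp, 130 bases from the start, against 16.0% of all windows. Asf1b held 4 CCAAT boxes, a number that 0.84% of all windows reached (this share was looked up after the count was seen). At least 1 CCAAT box was found in 8 members, against 33.8% of all windows. Only Chaf1b and Hira lacked it, and Hira held none of the motifs. These are matches of letters in 1 short window per start (Daxx has 3 annotated starts, and its CCAAT box lies before the first).

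**Figure D1:**
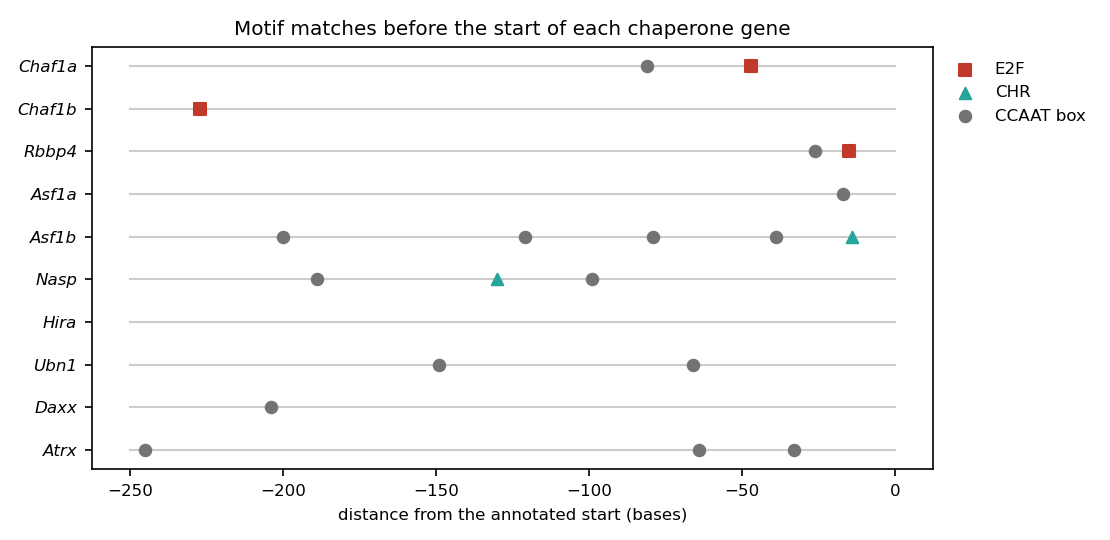
Positions of motif matches (symbols) in the 250 bases before the annotated start of each chaperone gene (rows, for Daxx its first start); the x axis is the distance from the start in bases. E2F cores (squares) lie before Chaf1a, Chaf1b and Rbbp4 alone among the 10 genes, CHR elements (triangles) before Asf1b and Nasp, and Hira has no match.

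Total counts ran from 35708879 to 38395131 in KO and from 38099488 to 45232055 in WT. Over 14681 tested genes, an adjusted p under 0.05 was reached by 938 (6.39%), 576 higher (3.92%) and 362 lower (2.47%) in KO, and scaling to total counts alone gave 464 higher and 502 lower. Leaving out KO replicate 1, 2 or 3 gave 295, 314 or 326 calls, leaving out WT replicate 1 gave 2961, and leaving out WT replicate 2 gave 366. The Th17 and CD4 T cell markers were present in every library, with a summed level from 597 to 628 CPM (counts scaled to library size) in KO and from 720 to 951 CPM in WT, and 4 of 10 were lower in KO, Il17a and Il17f among them. All 4 markers of gamma delta T cells were higher, with sums from 94.8 to 98.8 CPM in KO and from 50.8 to 62.6 CPM in WT. B cell markers summed to between 86.8 and 92.6 CPM in KO and between 51.2 and 66.3 CPM in WT, mostly Ighm (2 of 3 tested were higher), with Ms4a1 at 0.112 CPM or less in every library. CD8 T cell markers ran from 12.3 to 16.3 CPM in KO and from 14.2 to 16.1 CPM in WT. Myeloid markers summed to 2.32 to 2.61 CPM in KO and 1.41 to 2.23 CPM in WT, dendritic cell markers to 0.431 to 0.840 CPM in KO and 0.105 to 0.297 CPM in WT, and erythroid markers to 1.48 to 4.90 CPM in KO and 0.396 to 0.840 CPM in WT. NK cell markers summed to 0.135 to 0.280 CPM in KO and 0.310 to 1.21 CPM in WT, and Ncr1, Klrb1c, Clec9a and Hba-a2 had no counts in any library. The part of these cells in the results below was not tested.

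Among the chaperones, 3 of 10 genes rose in the libraries labelled KO and none fell: Asf1b by 1.41-fold, Chaf1a by 1.24-fold and Nasp by 1.21-fold. The background for such calls is 3.92% of tested genes higher and 2.47% lower. All 6 genes of CAF-1 and of H3-H4 supply had fitted changes above 0, as did 7146 of all 14681 tested genes. All 4 of the HIRA and DAXX-ATRX routes had fitted changes below 0, as did 7535 of all tested genes. None of these 4 passed the test, which 6.39% of all tested genes passed (Daxx turned to 0.019 without WT replicate 1). The groups stood apart, with every KO value above every WT value, in 5 of the 10 genes (14.4% of all tested genes), and with every KO value below every WT value in Hira (12.4% of all tested genes). The members and their roles were chosen with earlier results of these data known, so this split is described and not tested. In bulk RNA a larger share of cells in S phase and more RNA per cell cannot be told apart.

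**Figure D2:**
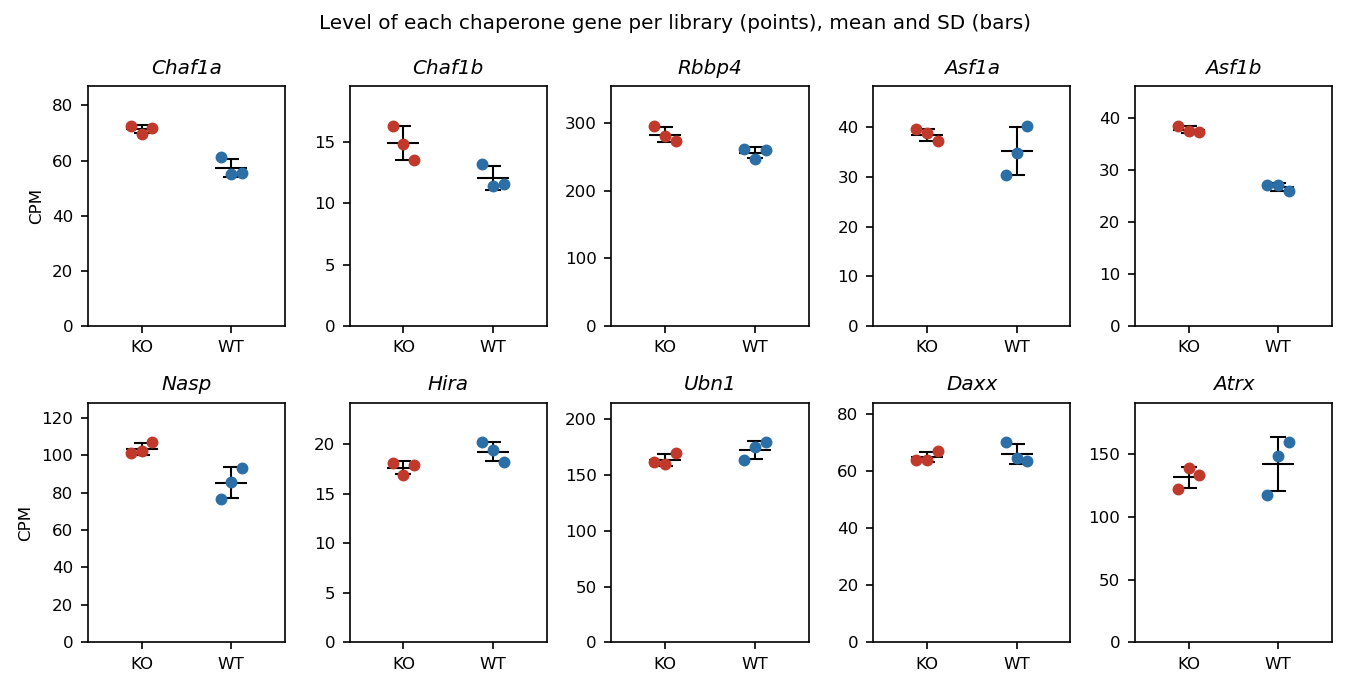
Level of each chaperone gene in CPM (y axes, each from 0) in the 3 libraries labelled KO (left, red points) and the 3 labelled WT (right, blue points), with the mean (wide bar) and SD (whiskers). KO and WT points do not overlap for Chaf1a, Chaf1b, Rbbp4, Asf1b and Nasp (KO higher) and for Hira (KO lower).

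Chaf1b encodes the middle subunit of CAF-1 and is the targeted gene (ENSMUSG00000022945.13). It was at 16.3, 14.9 and 13.5 CPM in the libraries labelled KO, against 13.2, 11.4 and 11.5 CPM in those labelled WT. Every KO value lay above every WT value, so the gene-level count was not lower where the label reports a deletion. The log2 fold change was 0.31 ± 0.11 (SE, n = 3 each), and its 95% interval ran from 0.07 to 0.55. It did not pass (adjusted p = 0.130 by Benjamini-Hochberg in the quasi-likelihood test of edgeR, the source of every adjusted p given here). The count covers reads from all exons, and transcripts that have lost only the floxed part would still be counted, so it does not check the genotype. All directions here therefore rest on the labels, and "KO" and "WT" mean the libraries labelled so. Chaf1b is also the least counted member, with 438 to 572 counts a library. The change passed without WT replicate 1 (0.38, adjusted p = 0.0138).

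Chaf1a encodes the large CAF-1 subunit that binds PCNA. It was at 72.5, 69.7 and 71.8 CPM in KO, against 61.2, 55.2 and 55.6 CPM in WT (ENSMUSG00000002835.10). The lowest KO library exceeded the highest WT library, and Chaf1a rose by 0.32 ± 0.06 on the log2 scale (95% interval 0.18 to 0.45, adjusted p = 0.0107). It no longer passed without KO replicate 1, 2 or 3 (adjusted p = 0.0850, 0.0554 and 0.0720) or without WT replicate 2 (0.0745), at log2 fold changes from 0.29 to 0.33. Chaf1a overlaps Ubxn6 in the RefSeq gene table, and without strand their shared reads cannot be told apart. Ubxn6 had a log2 fold change of -0.16 ± 0.10 (adjusted p = 0.381). The ratio of Chaf1a to Chaf1b counts within a library was 2.15, 2.23 and 2.41 on the log2 scale in KO and 2.21, 2.27 and 2.27 in WT. These ranges overlap, and the mean ratio differed by 0.01.

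Rbbp4 encodes a histone-binding WD40 protein that CAF-1 shares with deacetylase, NuRD and Polycomb complexes. It was at 295, 280.5 and 273 CPM in KO, against 261, 247 and 259.9 CPM in WT (ENSMUSG00000057236.11). The groups stood apart by a narrow margin, and the log2 fold change of 0.14 ± 0.05 did not pass (95% interval 0.04 to 0.25, adjusted p = 0.111). Without WT replicate 1 it passed (0.16, adjusted p = 0.00633). Its close paralog Rbbp7, which works with the histone acetyltransferase HAT1, had a like value of 0.16 ± 0.06 (adjusted p = 0.131), and the ratio of Rbbp4 to Rbbp7 overlapped between the groups. The counting command sets no option for reads that match several places, so reads common to both paralogs may be missing from each.

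Asf1b rose most among the 10 genes. It encodes the ASF1 paralog tied to proliferating cells, and was at 38.5, 37.6 and 37.3 CPM in KO, against 27.3, 27.2 and 25.9 CPM in WT (ENSMUSG00000005470.9). Within each genotype the 3 values lay within about 1 CPM of their mean, while the means were 37.8 ± 0.630 CPM in KO and 26.8 ± 0.729 CPM in WT (SD, n = 3 each). The log2 fold change was 0.50 ± 0.07 (95% interval 0.35 to 0.65, adjusted p = 0.00145). It passed in all 6 fits that left out a library, with adjusted p up to 0.0219, and 12.9% of tested genes had a larger absolute change.

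Asf1a encodes the other ASF1 paralog, which also hands H3-H4 to HIRA. It was at 39.6, 38.9 and 37.2 CPM in KO, against 30.5, 34.9 and 40.3 CPM in WT (ENSMUSG00000019857.8). The WT libraries spanned the KO values, and the log2 fold change of 0.13 ± 0.09 did not pass (95% interval -0.08 to 0.34, adjusted p = 0.484). It was 0.03 without WT replicate 1 and 0.24 without WT replicate 3. Asf1a lies within Mcm9 in the RefSeq gene table, and Mcm9 was at -0.04 ± 0.11 (adjusted p = 0.874). The log2 ratio of Asf1b to Asf1a counts was -0.04, -0.05 and 0.00 in KO and -0.16, -0.36 and -0.63 in WT. All KO ratios lay above all WT ratios, and the difference of 0.36 was not tested; it was 0.47 without WT replicate 1 and 0.24 without WT replicate 3.

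Nasp encodes the chaperone that keeps free H3-H4 from being degraded. It was at 101, 102 and 107 CPM in KO, against 76.7, 85.5 and 93.3 CPM in WT (ENSMUSG00000028693.16). The groups did not overlap, although the WT libraries were spread widely. Nasp rose by 0.28 ± 0.07 (log2, 95% interval 0.12 to 0.43, adjusted p = 0.0392). Nasp did not pass without KO replicate 1, 2 or 3 (adjusted p = 0.156, 0.156 and 0.190), without WT replicate 2 (0.144) or with total-count scaling (0.25, adjusted p = 0.0545).

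Hira encodes the scaffold of the complex that deposits H3.3 at active genes. It was at 18.1, 16.9 and 17.9 CPM in KO, against 20.2, 19.4 and 18.2 CPM in WT (ENSMUSG00000022702.17). The highest KO value was just under the lowest WT value, and the log2 fold change of -0.13 ± 0.09 did not pass (95% interval -0.32 to 0.06, adjusted p = 0.446). Ubn1, the H3.3-binding partner of HIRA, was at 161, 159.6 and 169 CPM in KO, against 163, 175 and 179 CPM in WT (ENSMUSG00000039473.9). Those values overlap, with a log2 fold change of -0.08 ± 0.05 (95% interval -0.19 to 0.04, adjusted p = 0.452). It was -0.11 without WT replicate 1 (adjusted p = 0.0546) and -0.047 without WT replicate 3.

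Daxx encodes the H3.3 chaperone that works at telomeres and repeats. It was at 63.9, 63.8 and 66.8 CPM in KO, against 69.9, 64.6 and 63.4 CPM in WT (ENSMUSG00000002307.17). Its values were interleaved, and the log2 fold change of -0.03 ± 0.06 had a 95% interval from -0.16 to 0.11 (adjusted p = 0.856); without WT replicate 1 it was 0.019. Atrx, the remodelling ATPase that brings DAXX to heterochromatin, was at 123, 139 and 134 CPM in KO, against 118, 149 and 159 CPM in WT (ENSMUSG00000031229.17). WT replicate 1 was below every KO library and the other WT libraries were above them. The log2 fold change was -0.11 ± 0.10 (95% interval -0.33 to 0.11, adjusted p = 0.596), and without WT replicate 1 it was -0.23 and passed (adjusted p = 9.82e-04). For all 4 genes the interval leaves out a change of 1.5-fold in either direction.

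The 6 genes of CAF-1 and supply were set against the 4 replication-independent genes within each library. The difference of their mean log2 CPM was -0.17, -0.24 and -0.31 in KO and -0.57, -0.65 and -0.59 in WT. It was 0.36 higher in KO, and the groups did not overlap. None of the 4 replication-independent genes had passed on its own. Single genes stood apart, in either direction, in 26.8% of those tested. Relative to DNA replication genes (below), 62.1% of all tested genes lay lower in KO without overlap, with a median difference of -0.32. Against Hira alone, the log2 count ratio of Chaf1a was 2.02 ± 0.03 in KO and 1.57 ± 0.06 in WT (SD, n = 3 each), and that of Chaf1b -0.25 ± 0.14 in KO and -0.68 ± 0.08 in WT. The ratio of Asf1b to Hira lay between 1.06 and 1.16 in the KO libraries and between 0.43 and 0.51 in the WT libraries, a difference of 0.63. None of these ratios was tested, and both sets were chosen with earlier results of these data known.

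**Figure D3:**
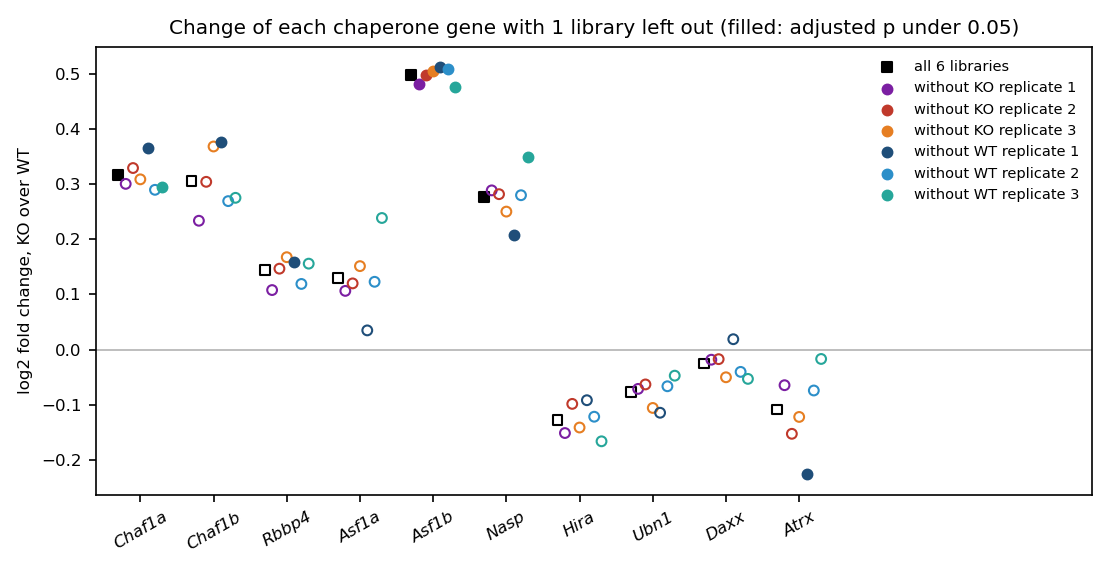
Log2 fold change (KO over WT, y axis) of each chaperone gene with all 6 libraries (squares) and with 1 library left out (circles, colour by library); filled symbols passed an adjusted p of 0.05. Asf1b is filled in every fit and stays between 0.48 and 0.51, whereas Chaf1a and Nasp are filled in 2 of 6 fits without a library, and Atrx reaches -0.23 without WT replicate 1.

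Other genes of the same routes were read from lists of partners. Of 8 genes that act with ASF1 and NASP in supplying H3-H4, 3 rose and none fell (median log2 fold change 0.22, against -0.0064 over all tested genes). Among all tested genes, 3.92% rose and 2.47% fell, and of 43 DNA replication genes (below) 28 rose, with a median of 0.33. Mcm2, the helicase subunit that also holds parental H3-H4, was at 196, 197 and 187 CPM in KO, against 150.2, 148 and 144 CPM in WT. It rose by 0.39 ± 0.05 (adjusted p = 6.81e-04) and passed in all 6 fits without a library. Hat1, which acetylates new H4, rose by 0.28 ± 0.07 (adjusted p = 0.0296), and the H3-H4 co-chaperone gene Dnajc9 by 0.24 ± 0.06 (adjusted p = 0.0381). Both lost their calls without any KO library or WT replicate 2 (adjusted p up to 0.154 and 0.196), so that 1 of the 8 genes passed in each of those fits. Tonsl and Mms22l, which read newly placed histones, were at 0.29 ± 0.10 and 0.21 ± 0.07 without passing (adjusted p = 0.109 and 0.116). The importin gene Ipo4 was the gene of this list with a negative value (-0.10 ± 0.06, adjusted p = 0.344).

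Of 8 genes that bring CAF-1 to the fork, 4 rose and none fell (median 0.25), where 3.92% of all tested genes rose and 2.47% fell. Of the 43 DNA replication genes 28 rose (median 0.33). Pcna, the sliding clamp, was at 153, 149 and 143 CPM in KO, against 108, 126 and 129 CPM in WT. Its change was 0.29 ± 0.07 (adjusted p = 0.0284), and the clamp loader genes Rfc5, Rfc2 and Rfc1 rose by 0.27 ± 0.06, 0.27 ± 0.07 and 0.25 ± 0.06 (adjusted p = 0.0246, 0.0396 and 0.0374). None of the 4 passed without any of the KO libraries or without WT replicate 2, where the count was 0 of 8. With the replicate number as a block 1 of 8 passed, and with total-count scaling 2 of 8. Cbx5, which encodes the HP1 protein that binds the large CAF-1 subunit, was at 0.10 ± 0.05 (adjusted p = 0.318).

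In the H3.3 route 0 of 7 partners passed in edgeR's test, against 6.39% of all tested genes. In the same test 1 gene of the list had an unadjusted p under 0.05 (21.1% of all tested genes did), Ubn2 (-0.23 ± 0.07, unadjusted p = 0.00614, adjusted p = 0.0746). Ubn2 encodes the second ubinuclein of the HIRA complex, and all its KO values lay below all its WT values. Cabin1, another HIRA partner, was at -0.08 ± 0.05. The H3.3 genes H3f3a and H3f3b had log2 fold changes of 0.02 ± 0.04 and 0.02 ± 0.05, with 95% intervals from -0.08 to 0.12 and from -0.08 to 0.13. Leaving out a library gave 0.0053 to 0.032 for H3f3a and -0.022 to 0.059 for H3f3b, the sign of the second turning without WT replicate 1. The PML body genes Pml and Sp100, which neighbour DAXX in the nucleus, were at 0.08 ± 0.08 and 0.13 ± 0.10. The list's median was 0.02. Without WT replicate 1 the list had 1 gene higher and 1 lower, and 1 was lower in edgeR with total-count scaling or with no filter on low counts, in DESeq2 and in limma-voom with quality weights.

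Of 5 H3-H4 chaperones linked to transcription 0 passed in edgeR or DESeq2, and edgeR called 6.39% of all tested genes. An unadjusted p under 0.05 was reached by 1 of the 5, against 21.1% of all tested genes, and the median was 0.10. The FACT subunit gene Ssrp1 (0.11 ± 0.04, adjusted p = 0.141, unadjusted 0.0193) stood with every KO value above every WT value, and Supt6 was at -0.05 ± 0.04. Of 11 chaperones of H2A-H2B, linker histone or CENP-A 0 passed in edgeR or DESeq2 with all 6 libraries and the filter on low counts. The share called by edgeR among all tested genes was 6.39%. An unadjusted p under 0.05 was reached by 2, near the 21.1% of all tested genes, and the median was 0.06. Npm1 was at 0.22 ± 0.08 (adjusted p = 0.154, unadjusted 0.0227) and Ncl at 0.08 ± 0.11. With no filter on low counts edgeR called 1 of the 11 higher. In limma-voom with quality weights 2 of the 11 and 1 of the 5 transcription-linked genes were higher. Npm1 passed without WT replicate 1 (0.12, adjusted p = 0.0165) and without WT replicate 3 (0.30), and Ssrp1 without WT replicate 1 (adjusted p = 0.0263). Ncl was at -0.046 without WT replicate 1 and 0.20 without WT replicate 3.

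**Figure D4:**
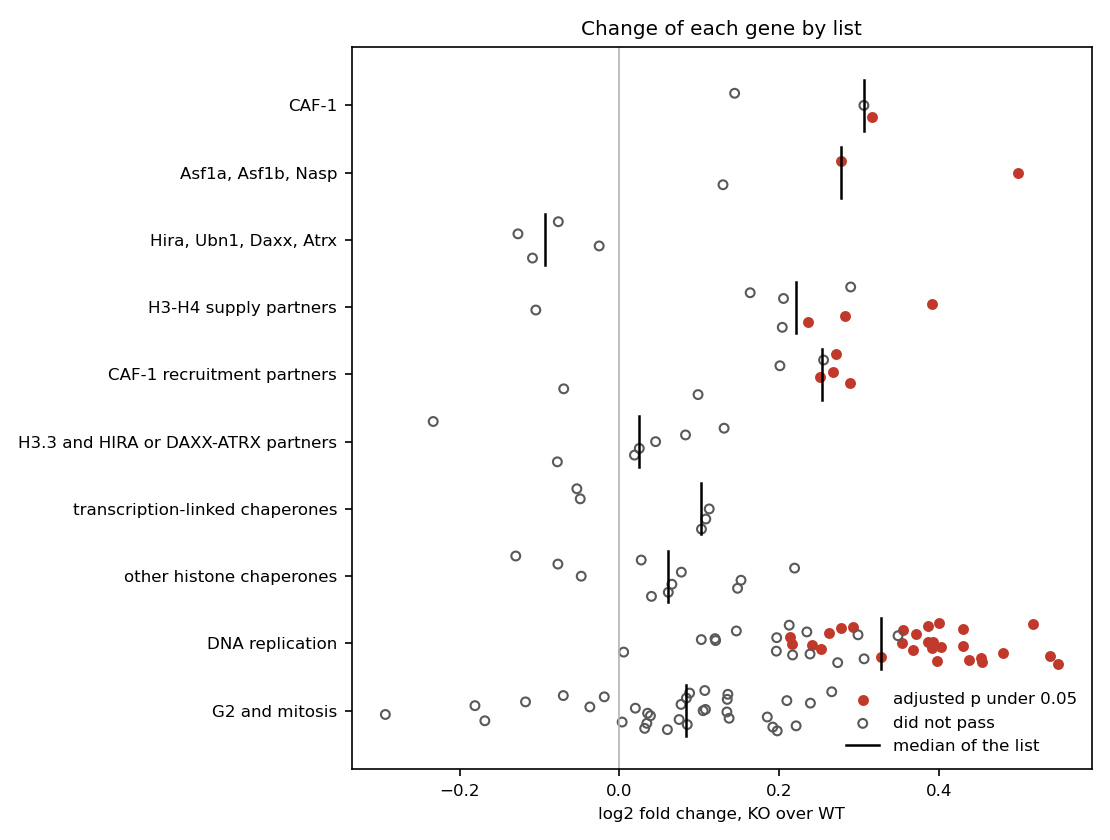
Log2 fold change (KO over WT, x axis) of each tested gene (points) in the lists of chaperones, their partners and cell cycle genes (rows); filled points passed an adjusted p of 0.05, and vertical bars are list medians. Calls lie in the CAF-1, supply, recruitment and DNA replication rows. No gene of the replication-independent, H3.3 partner, transcription-linked, other chaperone or G2 rows passed, where 6.39% of all tested genes did.

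The DNA replication genes gave the scale for the chaperones. All 43 had fitted changes above 0 and 28 rose, with a median of 0.33 and values from 0.0053 to 0.55 (13 to 37 rose when a library was left out, the fewest without KO replicate 1 or 3 and the most without WT replicate 1, with 15 without KO replicate 2 and 16 without WT replicate 2). Among all 14681 tested genes, 7146 had fitted changes above 0 and 3.92% rose. Ccne1, the cyclin of S phase entry, rose by 0.55 ± 0.09, E2f1 by 0.54 ± 0.11, the nucleotide synthesis gene Tyms by 0.52 ± 0.07, and the helicase genes Gins2 and Cdc45 by 0.48 ± 0.11 and 0.45 ± 0.06. The calls of E2f1 and Gins2 were each lost without KO replicate 1 or 3 (adjusted p up to 0.0968 and 0.143), and that of Gins2 also without KO replicate 2 or WT replicate 2. Of 33 genes of G2 and mitosis 0 passed in edgeR's test, against 6.39% of all tested genes, and their median was 0.08. Of the 33 genes, 11 (33.3%) had an unadjusted p under 0.05, against 21.1% of all tested genes. Fitted changes were above 0 in 26 and below 0 in 7. Every KO value lay above every WT value in 9 (14.4% of all tested genes) and below in 2 (12.4%). DESeq2 called 2 higher and quality weights in limma-voom 8 higher and 2 lower. Without WT replicate 1, 3 were higher and 2 lower, and without WT replicate 3, 2 were higher. The mitotic genes Top2a and Mki67 were at 0.14 ± 0.05 and -0.12 ± 0.08 (adjusted p = 0.136 and 0.474), and Mki67 passed as lower without WT replicate 1 (-0.22, adjusted p = 1.27e-04).

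Each chaperone was then expressed relative to the mean log2 CPM of those 43 genes in the same library. That mean was 5.72 ± 0.01 in KO and 5.40 ± 0.02 in WT (SD, n = 3 each), a difference of 0.32, so a gene with no change in CPM is lower by that much on this scale. Chaf1a lay at 0.44 ± 0.04 in KO and 0.44 ± 0.09 in WT (SD, n = 3 each), and Chaf1b was at -1.83 ± 0.12 in KO and -1.81 ± 0.12 in WT. Nasp was at 0.97 ± 0.05 in KO and 1.01 ± 0.14 in WT. For these 3 genes the groups overlapped. Asf1b was higher relative to the mean of the replication genes, at -0.46, -0.49 and -0.48 in KO against -0.63, -0.65 and -0.69 in WT. Its log2 fold change of 0.50 lay within the range of the 43 genes themselves (0.0053 to 0.55). Rbbp4 was lower relative to them by 0.17, without overlap, and Hira, Ubn1, Daxx and Atrx by 0.44, 0.39, 0.34 and 0.42, each without overlap. On this scale 62.1% of all tested genes lay lower in KO without overlap and 2.53% lay higher, with a median difference of -0.32. These relative values are descriptions and were not tested.

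**Figure D5:**
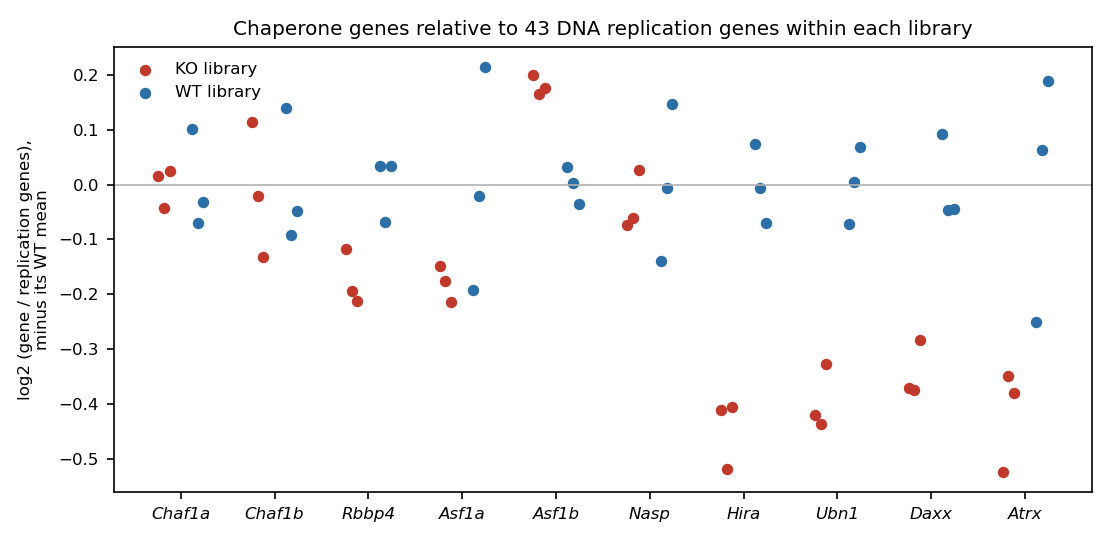
Log2 ratio of each chaperone gene to the mean of 43 DNA replication genes in the same library, shifted so that the WT mean of each gene is 0 (y axis); KO libraries are red and on the left of each pair, WT libraries blue and on the right. KO and WT points overlap for Chaf1a, Chaf1b, Asf1a and Nasp, KO lies above WT for Asf1b, and KO lies below WT for Rbbp4, Hira, Ubn1, Daxx and Atrx, as for 62.1% of all tested genes.

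Genes with the pattern most like that of 3 members across the 6 libraries were sought among 9175 genes of at least 5 CPM, by the root mean square difference of centred log2 CPM. Nearest to Chaf1a were Tmem154, Pign, an enzyme of GPI anchor synthesis, and Rgs3, a regulator of G protein signalling, at differences of 0.0207, 0.0227 and 0.0231. Nearest to Chaf1b were the cytokinesis kinase gene Cit, the TNF receptor family gene Relt and Htatip2, at 0.0344, 0.0419 and 0.0442. Asf1b was closest to Cd74, the invariant chain of MHC class II, Rhbdf2 and the kinase gene Prkd2, at 0.0186, 0.0239 and 0.0320. Among the 10 chaperones, Chaf1b was the nearest to Chaf1a (0.0780, in place 248 of the ranking), Chaf1a was the nearest to Chaf1b (place 73), and Atrx was the farthest from both.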

How the data were processed

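RNA-seq counts of 6 libraries (3 KO, 3 WT) were analysed; the other 7 of 13 samples were not analysed here. The authors deposited raw counts per gene, made with featureCounts 2.0.1 over exons of GENCODE vM33, per the file headers, which set no strand, multi-mapping or paired-end option; 1 of the 6 commands is incomplete. Per the labels' protocols, TRIzol RNA went into Illumina TruSeq libraries. Aligner version and genome build are unstated in the headers and labels. The deposited column of WT replicate 2 is entered as other in the record of units but holds raw counts like the rest. Without strand, overlapping or antisense genes cannot be told apart. Counts from 1 to 20 were even in 65.6% to 67.7% of cases, so both mates of a pair may be counted and counts overstate fragments.

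Symbols were matched for 51948 of 56941 IDs (91.2%). The comparison of KO with WT used edgeR 4.0.16 under R 4.3.3 (default low-count filter, TMM factors from 0.984 to 1.02, robust quasi-likelihood F-test), adjusted by Benjamini and Hochberg over 14681 genes; each SE was derived from the log2 fold change and its F value (|log2 fold change| / √F). CPM use TMM library sizes, except marker sums, which use totals. Alternatives used limma 3.58.1 and DESeq2 1.42.0. Genes were named by a rule (all members, partners past the threshold, the 2 most abundant of a list without calls); Rbbp7, Tonsl, Mms22l, Ipo4, Cbx5, Ubn2, Cabin1, Pml and Sp100 were added after their values were seen. Some genes that the rule or the marker lists hold are not reported here. Members and lists were chosen with earlier results of these data known. The labels do not say that the replicates are separate animals, so p-values measure the spread between libraries. The test was tried on simulated data, and the outcome is not reported here. No 2 libraries were as alike as sampling noise alone would make them. Chi-square per degree of freedom, a measure of how far 2 libraries differ, was 4.19 to 4.53 between KO libraries. WT replicates 2 and 3 were 7.54 apart. WT replicate 1 stood at 18.8 from WT replicate 2, 33.1 from WT replicate 3 and 27.5 to 31.5 from the KO libraries. From the KO libraries, WT replicate 2 stood at 18.0 to 22.9 and WT replicate 3 at 24.4 to 28.9. Gene lengths were not used, so levels are not compared between genes.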

Additional observations from a re-analysis of the deposited data

How the results depend on the processing

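Leaving out libraries moved the calls most. The number of genes past the threshold ran from 295 to 2961 (225 to 1589 higher, 70 to 1372 lower in KO). The log2 fold change ran from 0.29 to 0.37 for Chaf1a, 0.23 to 0.38 for Chaf1b, 0.11 to 0.17 for Rbbp4, 0.21 to 0.35 for Nasp, -0.23 to -0.017 for Atrx and -0.053 to 0.019 for Daxx, the sign turning without WT replicate 1. Quality weights per library (limma-voom) gave 2934 calls (1558 higher, 1376 lower) and put Chaf1b (0.36, adjusted p = 0.0147) and Rbbp4 (0.17, adjusted p = 0.00508) past the threshold. No filter on low counts gave 1568 calls with 746 lower, DESeq2's Wald test 569 lower, and total-count scaling took Nasp out (0.25). The causes were not tested. Asf1b passed under all 16 alternatives. Asf1a, Hira, Ubn1 and Daxx passed under none.

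Deviations from the group means correlated at -0.0158, -0.0836 and 0.132 between KO and WT libraries that share the replicate numbers 1, 2 and 3. Between unlike numbers the correlations ran from -0.143 to 0.161. With 3 libraries in each group, these values cannot show whether the shared numbers pair the libraries. A fit with a replicate block called 671 genes, 231 of them lower. No member's call changed with the block. A level per length was planned and not run, since gene lengths were not used. Depth limits Chaf1b and Hira most, at 438 to 829 counts a library.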
